A study of Mus musculus with 4 samples.

Results

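Genes of the Pax, Lhx, Isl, Six-family, Dlx, Nkx and Tbx groups encode 57 sequence-specific regulators of embryonic development whose accessible chromatin was read here in blood stem and progenitor cells of mice. Members were the genes with a symbol of one of these 7 families followed by a number, and Pax5, a B cell gene, was left out by the same rule. An accessible interval was counted for a member when the deposited annotation assigned it to that gene. Of 220733 intervals in 4 libraries, 453 were assigned to a member, and 56 of the 57 members had at least 1. Tbx22, on chromosome X, had none. Because 9 intervals were assigned to more than 1 member, there were 462 gene and interval pairs.

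The assay was ATAC-seq, in which a transposase cuts and tags accessible DNA. Each library came from 50000 LSK cells, the bone marrow fraction that lacks lineage markers and carries Sca1 and Kit, sorted by flow cytometry. The libraries WT 1 and WT 2 were from p53+/+ mice and R248W 1 and R248W 2 from p53R248W/+ mice, which carry 1 allele of p53 with the R248W substitution. Neither the age of the mice nor whether each library had a mouse of its own is given in the labels, so the spread between libraries may be technical. The question that the design puts is whether accessibility in LSK cells differs with the mutant allele.

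Genes of these families carry a homeodomain, a paired domain or a T-box, through which their proteins bind DNA, and each acts in a restricted set of embryonic tissues. In cells of other lineages their promoters, which mostly lie in CpG islands, are commonly held silent by Polycomb complexes that place a methyl mark on histone H3. In blood, Lhx2 is known for a role in fetal liver erythropoiesis, Tbx21 acts in T and natural killer cells, and Nkx2-3 is needed for spleen formation. Most of the others are best known from the nervous system, heart, limbs, skeleton, kidney or pancreas.

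The sequences around 7 member starts are shown because they span what was seen at starts with and without an interval. Each runs from 250 bases before to 50 bases after a RefSeq start on GRCm38.p6, on the gene's own strand, and capitals mark CG dinucleotides. In Isl1, at chr13:116309639-116309938 on the minus strand, Tbx20, at chr9:24774254-24774553 on the minus strand, and Six6, at chr12:72939632-72939931 on the plus strand, the interval summits of all 4 libraries fell inside the window. These windows held 37, 26 and 20 CG dinucleotides, and their intervals overlapped a CpG island.
Isl1: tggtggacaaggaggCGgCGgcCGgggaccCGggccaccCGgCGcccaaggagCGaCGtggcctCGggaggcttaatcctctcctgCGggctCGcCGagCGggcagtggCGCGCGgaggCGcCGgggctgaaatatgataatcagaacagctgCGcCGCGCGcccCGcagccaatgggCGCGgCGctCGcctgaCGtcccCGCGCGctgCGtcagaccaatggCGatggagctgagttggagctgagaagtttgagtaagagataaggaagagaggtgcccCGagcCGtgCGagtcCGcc
Tbx20: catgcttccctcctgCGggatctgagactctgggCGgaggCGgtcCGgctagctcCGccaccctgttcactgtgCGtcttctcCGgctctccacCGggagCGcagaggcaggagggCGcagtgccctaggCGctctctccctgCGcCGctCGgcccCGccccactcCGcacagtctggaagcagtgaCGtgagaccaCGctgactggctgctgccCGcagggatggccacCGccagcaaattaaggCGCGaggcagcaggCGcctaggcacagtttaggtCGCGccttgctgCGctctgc
Six6: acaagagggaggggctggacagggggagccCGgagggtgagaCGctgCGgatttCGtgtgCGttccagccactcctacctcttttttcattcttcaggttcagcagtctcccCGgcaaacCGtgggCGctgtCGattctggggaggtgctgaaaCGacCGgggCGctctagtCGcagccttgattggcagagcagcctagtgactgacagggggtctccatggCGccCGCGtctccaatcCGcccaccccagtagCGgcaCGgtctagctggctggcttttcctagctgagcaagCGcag

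Nkx2-3, at chr19:43612075-43612374 on the plus strand, also had its summits inside the window in all 4 libraries, but no CpG island was assigned to its intervals, and the window held 15 CG dinucleotides. Tbx19, at chr1:165160724-165161023 on the minus strand, had a start-site interval in WT 2 and R248W 1 only. Its window held 7 CG dinucleotides. The homeodomain core TAATTA, the same on both strands, was in this window, and in 3.77% of 53 member promoters and 5.29% of all 32851 promoters in the table.
Nkx2-3: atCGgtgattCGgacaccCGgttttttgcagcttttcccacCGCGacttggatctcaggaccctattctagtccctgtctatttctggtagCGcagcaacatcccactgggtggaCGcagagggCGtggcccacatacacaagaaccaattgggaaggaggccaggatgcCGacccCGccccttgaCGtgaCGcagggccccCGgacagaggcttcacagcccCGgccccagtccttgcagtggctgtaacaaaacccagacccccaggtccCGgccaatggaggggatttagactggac
Tbx19: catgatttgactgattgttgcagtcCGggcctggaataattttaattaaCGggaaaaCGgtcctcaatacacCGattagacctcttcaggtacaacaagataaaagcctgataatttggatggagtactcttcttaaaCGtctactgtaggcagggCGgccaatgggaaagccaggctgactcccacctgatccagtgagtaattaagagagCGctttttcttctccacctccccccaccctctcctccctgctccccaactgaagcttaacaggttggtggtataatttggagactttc

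Lhx1, at chr11:84525485-84525784 on the minus strand, and Tbx10, at chr19:3992502-3992801 on the plus strand, had no start-site interval in any library. The Lhx1 window held 31 CG dinucleotides, more than that of Tbx20, and the Tbx10 window held 4. CG-rich windows were thus found at starts with and without a called summit.
Lhx1: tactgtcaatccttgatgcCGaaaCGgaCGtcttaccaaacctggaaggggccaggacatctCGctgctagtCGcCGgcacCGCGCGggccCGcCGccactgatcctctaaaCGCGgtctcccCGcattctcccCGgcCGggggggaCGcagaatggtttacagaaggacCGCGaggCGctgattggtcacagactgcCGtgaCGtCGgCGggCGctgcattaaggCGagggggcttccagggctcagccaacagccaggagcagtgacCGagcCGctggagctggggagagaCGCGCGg
Tbx10: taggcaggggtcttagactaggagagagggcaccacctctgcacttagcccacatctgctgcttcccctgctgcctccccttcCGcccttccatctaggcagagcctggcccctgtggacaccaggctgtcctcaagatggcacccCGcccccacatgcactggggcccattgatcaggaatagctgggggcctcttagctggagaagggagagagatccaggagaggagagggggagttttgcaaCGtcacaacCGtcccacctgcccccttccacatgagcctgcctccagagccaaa

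The libraries held 46720, 62478, 60385 and 51150 intervals in the order WT 1, WT 2, R248W 1 and R248W 2, the order used for all lists of 4 values below. The signal of an interval is that of its highest bin of about 32 bases, in the authors' units, and its median was 52, 62, 62 and 50. Since no source gives a scaling between libraries, each signal is also given as a percentile within its own library's list. Read depth is unknown, so an interval missing from a list does not show closed chromatin. Start sites of the stem and progenitor markers Kit, Cd34, Flt3, Meis1 and Hlf were open in all 4 libraries, while those of Ly6a, which encodes Sca1, and Gata2 were open in none. No T, B or neural marker was open in all 4 libraries. The erythroid markers Klf1 and Hbb-bs were open in none. Col1a1 and Pdgfrb were open in all 4 among the 3 markers of stroma and endothelium. Whether other cells in the sort contributed to a member's interval was not tested.

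Members were mostly weakly open or not open at their starts. A start site was counted as open where an assigned interval had its summit within 1 kb of the start given in the file. By that measure 19, 25, 23 and 25 of the 57 members were open, and 18 members (31.6%) were open in all 4 libraries, against 52% of 21896 coding genes. In at least 1 library, 29 members were open, against 58.7% of coding genes, and 28 members were open in none. The 18 members had a median percentile of 60.0, averaged over the 4 libraries, and coding genes open in all 4 had a median of 85.3 with quartiles of 69.3 and 93.8. Below the lower quartile of coding genes lay 13 of the 18 members, and Six5 alone lay above their median. Median signals over open member starts were 48, 77, 78 and 53, and those over open coding starts were 133, 191, 197 and 130.

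**Figure D1:**
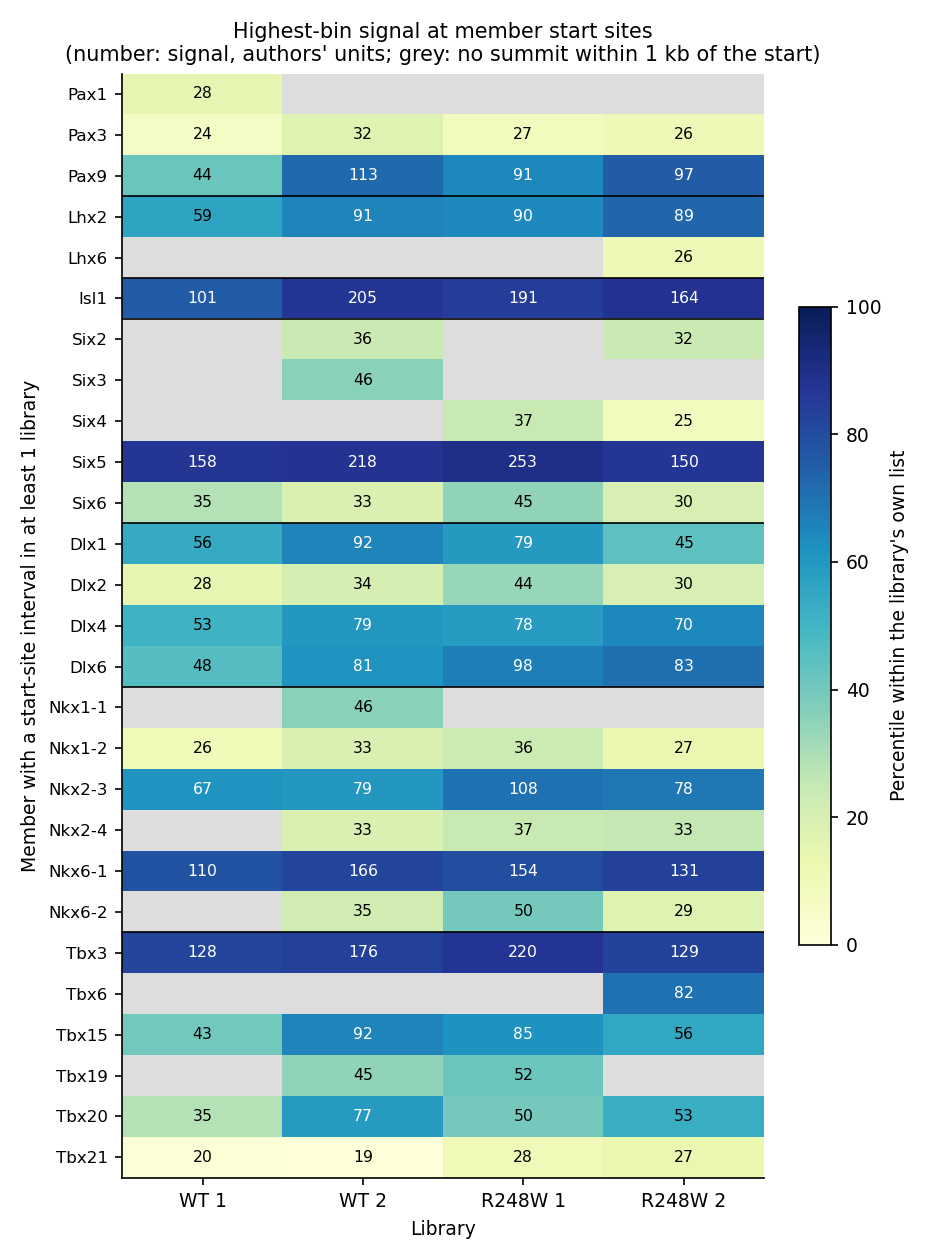
Highest-bin signal at the start sites of 27 of the 29 members open in at least 1 library, by family and library. Colour gives the percentile within the library's own list, the printed number is the signal in the authors' units, and grey marks no summit within 1 kb. Of the members shown, 17 have a value in all 4 libraries.

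Among the paired-box genes, 2 of 8 were open in all 4 libraries. Pax9, which acts in the pharyngeal pouches and the vertebral column, had start-site signals of 44, 113, 91 and 97, at a mean percentile of 63.4 ± 15.4 (SD, n = 4). It was lowest in WT 1, and the 2 genotypes overlapped. Pax3, a gene of neural crest and muscle progenitors, had signals of 24, 32, 27 and 26, at a mean percentile of 10.9 ± 4.78 (SD, n = 4), near the bottom of every list. Pax1, which acts with Pax9 in the sclerotome, was open in WT 1 alone, at a signal of 28. Pax2 and Pax8 of the kidney and thyroid, Pax4 and Pax6 of the eye and pancreas, and Pax7 of muscle satellite cells had no open start in any library.

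In the LIM homeobox genes, whose proteins join a homeodomain to LIM domains, 1 of 8 Lhx genes and 1 of 2 Isl genes were open in all 4 libraries. Isl1, which marks motor neurons and cardiac progenitors, had signals of 101, 205, 191 and 164, at a mean percentile of 83.7 ± 5.56 (SD, n = 4). Its summits lay between -72 and -8 bases from the start, within the window printed above. Lhx2 had signals of 59, 91, 90 and 89, at 64.6 ± 6.93 (SD, n = 4), with WT 1 the lowest library for both genes. Lhx6, a gene of cortical interneurons, was open in R248W 2 only, at a signal of 26. The starts of Lhx1, Lhx3, Lhx4, Lhx5, Lhx8, Lhx9 and Isl2 were open in no library by the start in the file, and Isl2 had a single interval of any kind, in WT 2. For Lhx8 a region that extended over the start was called in all 4 libraries, at 36, 64, 75 and 66. Its summits lay between 1952 and 2016 bases from that start.

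Each of the 6 Six-family genes was open in at least 1 library, the only family of the 7 with no member open in none. Six5, a neighbour of the gene whose repeat expands in human myotonic dystrophy, had the highest mean percentile of all members, 87.7 ± 1.47 (SD, n = 4), with signals of 158, 218, 253 and 150. Its intervals were 4265 to 4514 bases long, overlapped 3 CpG islands and were also assigned to Dmwd, Dmpk and Mir3100, so the signal cannot be given to Six5 alone. Six6, of the eye and pituitary, was also open in all 4 libraries but low, with signals of 35, 33, 45 and 30 at 25.4 ± 7.42 (SD, n = 4).

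Another 3 genes of this family were seen in part of the libraries. Six2, of nephron progenitors, had signals of 36 in WT 2 and 32 in R248W 2. Six3, of the forebrain and eye, had 46 in WT 2 alone, and Six4, of muscle and sensory ganglia, had 37 in R248W 1 and 25 in R248W 2. None of the 3 reached the median signal of its own library, and none was open in both libraries of one genotype and neither of the other except Six4. A region overlapping the Six4 interval was called in WT 2 at a signal of 31, with its summit 1565 bases from the start.

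The Dlx genes lie as neighbouring pairs, and 4 of 6 were open in all 4 libraries, the highest share of the 6 families with more than 2 genes. Dlx6, of jaw and limb development, had signals of 48, 81, 98 and 83, at 61.2 ± 10.9 (SD, n = 4), and Dlx4 had 53, 79, 78 and 70, at 58.7 ± 5.75 (SD, n = 4). Dlx1 and Dlx2, regulators of forebrain interneurons and branchial arches, had mean percentiles of 55.6 ± 9.26 and 22.0 ± 8.05 (SD, n = 4 each). Within the pairs the levels differed: Dlx2 lay below Dlx1 in all 4 libraries, and Dlx5 and Dlx3, the neighbours of Dlx6 and Dlx4, had no open start in any library. The start region of Dlx6 was also assigned to Dlx6as1 and Dlx6as2, and that of Dlx4 to A730090H04Rik. That of Dlx1 was also assigned to Dlx1as and Metap1d, and that of Dlx2 to Dlx1as. No other assigned gene's start was nearer to the start-site summits than the member's own.

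Of 14 Nkx genes, 3 were open in all 4 libraries. Nkx6-1, a regulator of pancreatic beta cells and motor neuron progenitors, had signals of 110, 166, 154 and 131, at 80.8 ± 2.33 (SD, n = 4). Its intervals spanned 3210 to 3363 bases and their summits lay between -729 and -697 bases from the start. Nkx2-3 had signals of 67, 79, 108 and 78, at 65.0 ± 5.04 (SD, n = 4). It was the only one of the 18 whose start interval overlapped no CpG island in any library. Nkx1-2, which marks the posterior progenitors of the trunk, had signals of 26, 33, 36 and 27, at 16.4 ± 5.84 (SD, n = 4). Its start region was also assigned to Lhpp.

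Nkx2-4 and Nkx6-2 were open in WT 2, R248W 1 and R248W 2 but not WT 1. Signals in that order were 33, 37 and 33 for Nkx2-4, and 35, 50 and 29 for Nkx6-2, a gene of myelinating oligodendrocytes. Nkx1-1 was open in WT 2 alone, at a signal of 46. For Nkx2-4 the region was called in WT 1 too, at 33, with its summit 1377 bases from the start, so only its summit position kept it out. No open start was found for Nkx2-1 of the lung and thyroid, Nkx2-2 of beta cells, Nkx2-5 of the heart, or Nkx2-6, Nkx2-9, Nkx3-2 and Nkx6-3.

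Of 13 Tbx genes, 4 were open in all 4 libraries. Tbx3, which acts in limb, mammary gland and cardiac conduction system, had signals of 128, 176, 220 and 129, at 83.9 ± 2.25 (SD, n = 4), with summits between -45 and 19 bases from the start. Tbx15, of skeletal and skin patterning, had 43, 92, 85 and 56, at 55.7 ± 11.3 (SD, n = 4). Tbx20, a heart regulator, had 35, 77, 50 and 53, at 44.9 ± 13.7 (SD, n = 4). For both of the latter, WT 1 was the lowest library and WT 2 the highest.

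Tbx21, which encodes T-bet, the regulator of type 1 helper T cells, had the lowest mean percentile of the 18, 6.25 ± 6.45 (SD, n = 4), with signals of 20, 19, 28 and 27. The T cell markers Cd3e, Cd8a and Lck had no open start in any library. Tbx6, of paraxial mesoderm, counted as open in R248W 2 alone, at 82, but its region was called in the other 3 libraries at 103, 139 and 159 with summits between -1387 and -1291 bases from the start. Tbx19, which drives pituitary corticotrophs, had 45 in WT 2 and 52 in R248W 1. Tbx1, Tbx2, Tbx4, Tbx5, Tbx10 and Tbx18, regulators that include those of the pharyngeal arches, limbs and heart, had no open start in any library. A region that extended over the Tbx18 start, with an island, was however called in all 4 libraries, at 43, 124, 87 and 95. Its summits lay between 1212 and 1308 bases from that start, so only their position kept Tbx18 out.

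The start regions of several members open in 1 to 3 libraries were also assigned to another gene, such as Mnat1 for Six4 and Inpp5a for Nkx6-2. The 11 members open in 1 to 3 libraries left 24 gene and library pairs without an open start. WT 1, the shortest list, accounted for 10 of these, WT 2 for 4, R248W 1 for 6 and R248W 2 for 4. In 6 of the 24 pairs an interval overlapped the same region with its summit farther than 1 kb, and in 18 no interval was called there. Most of the partial calls were therefore missing intervals, and the library with the fewest intervals lacked the most.

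The definition of a start mattered for a few members. The start in the file was among the starts of the RefSeq promoter table for 32 of the 41 members with an interval and an entry. When the RefSeq starts were allowed as well, Lhx3, with signals of 63, 90, 80 and 63 and summits 39 bases from a start, and Tbx1, with 38, 44, 44 and 44, became open in all 4 libraries, which made 20 members in place of 18. Lhx9 and Pax6 also gained libraries, and no member lost one.

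CpG islands covered nearly all open member starts. An island was assigned to 17, 23, 21 and 23 of the open starts, or 89.5%, 92.0%, 91.3% and 92.0%. Of the 18 members open in all 4 libraries, 16 had an island in every library (88.9%), Pax9 had one in 3 and Nkx2-3 in 0, while 83.6% of the 11383 coding genes open in all 4 had one in every library. Coding genes with an island had a median percentile of 87.2 and those without one 71.7, so the members' median of 60.0 lay below both. Away from the starts the shares varied with position: inside the gene 54.3% of 151 member pairs overlapped an island, against 7.03% of all such pairs, upstream 42.7% against 30.3%, and downstream 22.1% against 33.5%. Over all member intervals the share with an island was 53.9%, 52.2%, 52.4% and 53.8%, against 24.1%, 19.2%, 19.7% and 23.0% of all intervals. Intervals over 2000 bases made up 15.7%, 21.6%, 21.0% and 19.8% of the members' intervals and 11.2%, 10.6%, 12.1% and 9.78% of all.

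In the 300-base RefSeq windows at the start given in the file, the number of CG dinucleotides had a median of 17.5 over 32 members, against 13 over 21262 coding gene promoters. Members open in all 4 libraries had a median of 26.5 (10 promoters, 15 to 40), those open in 1 to 3 libraries 16 (9 promoters, 7 to 38) and those open in none 17 (13 promoters, 4 to 31). The ranges overlapped widely. GGGCGG, a GC box sought on both strands, was in 62.3% of the 53 member promoters and 46.2% of coding gene promoters, and TATAAA was in 7.55% and 12.6%. These matches describe letters only and show no binding.

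**Figure D2:**
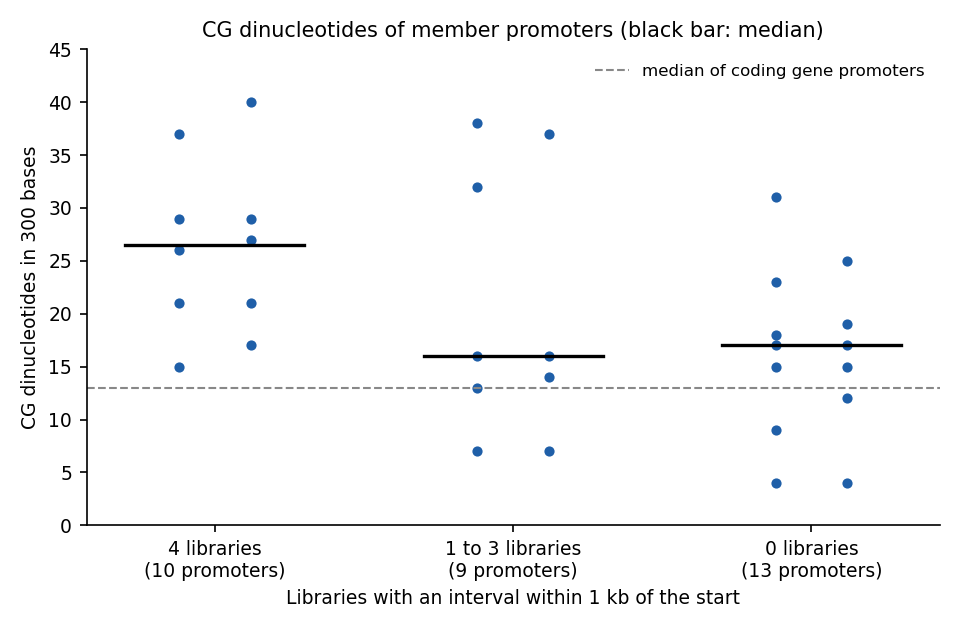
CG dinucleotides in the 300-base window of each member's start, by the number of libraries in which that start was open. Points are members, black bars medians and the dashed line the median of coding gene promoters; the 10 members open in 4 libraries have a median of 26.5, and the other 2 groups 16 and 17, with overlapping ranges.

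Many of the stronger member intervals lay away from the member's start and near another gene's. Of the 462 pairs, 92 had their summit within 1 kb of the member's start, 124 lay upstream, 151 inside the gene and 95 downstream. Another gene's start was within 1 kb and nearer in 41 pairs, whose median percentile was 75.0, against 39.0 for the others. The 5 strongest distal regions called in all 4 libraries were all of this kind. For Tbx6 they were a region at the Ypel3 start, with signals of 254, 301, 307 and 207, and another at the Ppp4c start, with 205, 298, 262 and 210. A region assigned to Tbx10 lay at Nudt8, with 178, 252, 291 and 194. One assigned to Lhx1 lay at Aatf, with 185, 258, 246 and 197, and one assigned to Lhx9 at 2310009B15Rik, with 145, 271, 310 and 153. Lhx1, Lhx9 and Tbx10 had no open start of their own by the start in the file, and these summits lay nearer to a neighbour's start than to theirs.

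Distal regions with no other gene's start within 1 kb were weaker than these 5. Inside Lhx2, a region at chr2:38368340-38369582 with summits between 17652 and 17684 bases from the start had signals of 85, 144, 152 and 135 and no CpG island. These were above the start-site signals of Lhx2 in all 4 libraries. Upstream of Nkx1-1, chr5:33437825-33439022 had 93, 150, 158 and 94, and upstream of Nkx3-2, which acts in cartilage, chr5:41766604-41769240 had 77, 148, 155 and 90. A region upstream of the Pax2 start in the file, chr19:44750184-44751536, with an island, had 78, 124, 147 and 90. By the RefSeq limits of Pax2 it lay inside the gene. Another, inside Pax6 at chr2:105673275-105677202, had 61, 108, 110 and 79 and 3 islands, and its summits lay nearer to the start of Pax6os1 than to that of Pax6. The starts of Nkx3-2, Pax2 and Pax6 in the file had no summit within 1 kb in any library and that of Nkx1-1 had one in WT 2 alone. A further Nkx3-2 region, chr5:41760961-41764811, extended over the start of that gene, with signals of 27, 46, 45 and 29 and summits between 2012 and 2428 bases from it.

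**Figure D3:**
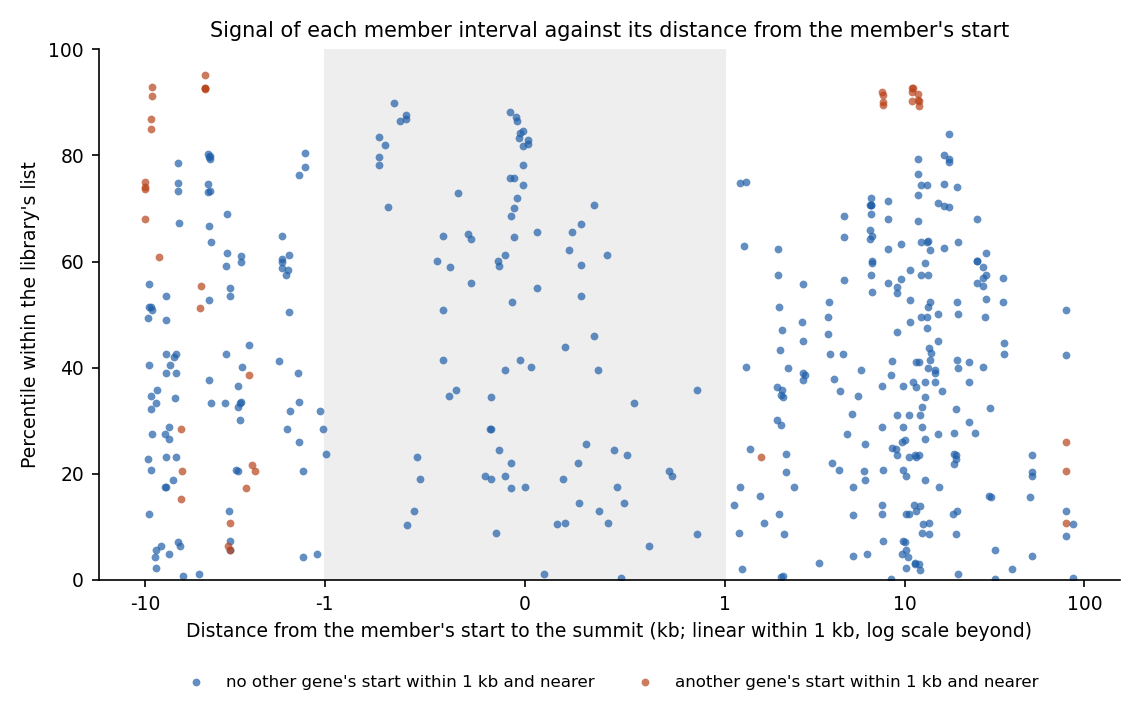
Percentile of each member interval within its library's list (y axis) against the signed distance from the member's start to the summit in kb (x axis, linear within 1 kb in the shaded band and logarithmic beyond). Red points, with another gene's start within 1 kb and nearer, include the highest distal values at the starts of Ypel3, Ppp4c, Nudt8, Aatf and 2310009B15Rik; blue points have no such start.

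Partner and related genes were read in the same way. Of 65 other homeobox and T-box regulators, 22 were open in all 4 libraries, 18 in part and 25 in none, with a median percentile of 39.6 over the 22. Among them Gbx2, of the midbrain and hindbrain boundary, had signals of 67, 114, 78 and 84, and the T-box gene Tbr1, of cortical neurons, had 55, 91, 115 and 54. Among genes for proteins with which members act, all 6 cofactors of Six-family proteins, from the Eya and Dach families, were open in all 4 libraries, with a median of 82.1, and 7 of 10 LIM cofactors, with a median of 90.8. Eya1, a phosphatase partner of Six-family proteins, had signals of 139, 312, 284 and 203, and Lmo4, a LIM-only protein, had 282, 477, 404 and 258. The start of Lmo4 lay above that of Lhx2 in every library, while Eya4 and Ldb2, at mean percentiles of 14.6 and 15.8, lay low in the members' range.

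Of 6 Groucho corepressors, recruited by Pax, Six-family and Nkx proteins, 4 were open in all 4 libraries at a median percentile of 97.2. Tle4 had signals of 600, 939, 989 and 594 and Tle1 487, 965, 865 and 504. All 11 genes of Polycomb complex 2 were open in all 4 libraries, with a median of 94.4, and Suz12 had 243, 342, 339 and 244. Trithorax genes were open in 7 of 9 cases, with a median of 86.0, and blood transcription factors in 12 of 19, with a median of 91.0. In the last list Gata2, Tal1, Lmo2, Fli1, Erg and Mecom had no open start in any library by this measure, so it also left out regulators of blood cells. Each of these 4 lists had a median above the 60.0 of the members. These are descriptions of lists chosen with earlier results known, and no test was made between them.

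**Figure D4:**
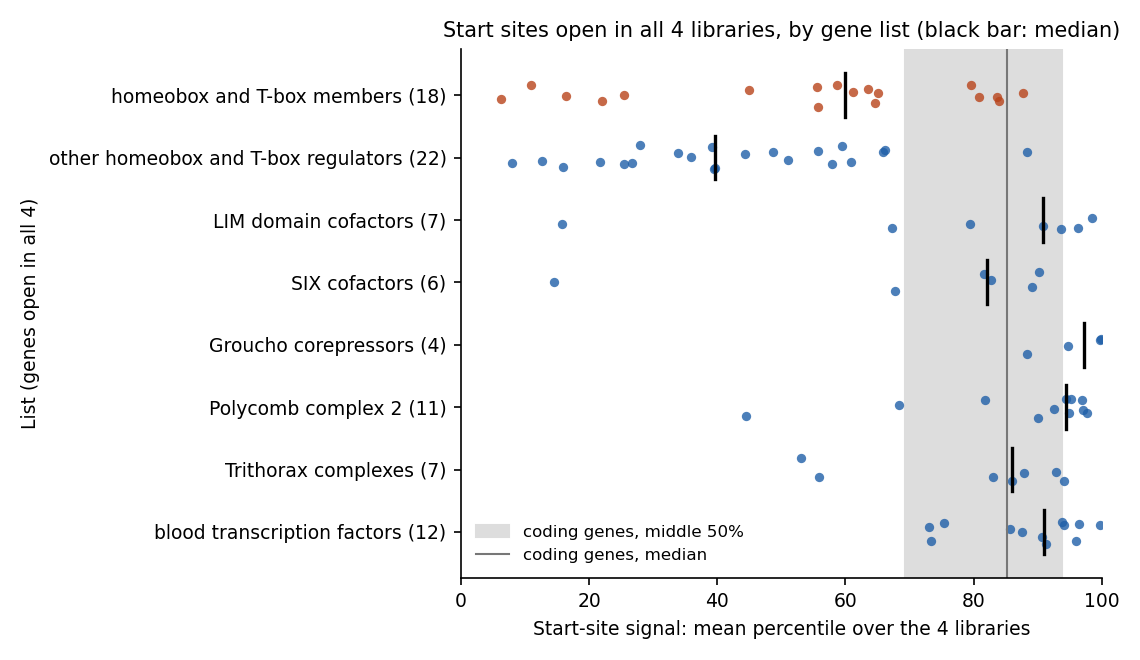
Mean percentile over the 4 libraries of the start-site signal, for the genes of each list that were open in all 4 libraries (number in brackets). Points are genes, black bars medians, and the grey band and line the middle 50% and median of coding genes; the members, in red, have a median of 60.0 and the other homeobox and T-box regulators 39.6.

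In the full lists none of 5 measures of the members differed between genotypes beyond the spread between libraries. Members had 111.5 ± 31.8 intervals in WT and 115 ± 12.7 in R248W (SD, n = 2 each), which were 0.202 ± 0.017% and 0.206 ± 0.00133% of all intervals. Open starts numbered 22 ± 4.24 and 24 ± 1.41, their median percentile was 52.6 ± 9.30 and 55.7 ± 4.58, and the share with an island 90.7 ± 1.79% and 91.7 ± 0.492% (SD, n = 2 each). The two-sided exact permutation test gave p = 1 for each of the 5 measures, also after adjustment over the 5, and the smallest p that 2 against 2 libraries allow is 0.33. Without WT 1 all 5 differences turned around: those in intervals, share, open starts, median percentile and island share, R248W minus WT, were -19, -0.00818, -1, -3.46 and -0.348. Without R248W 1, the differences in intervals and median percentile were -5.5 and -0.124. When every list was shortened to the length of the WT 1 list, the genotypes did not overlap in 4 of the 5 measures: member intervals numbered 89, 89, 98 and 99, their share was 0.190%, 0.190%, 0.210% and 0.212%, open starts numbered 19, 16, 20 and 25, and the share with an island was 89.5%, 87.5%, 90.0% and 92.0%. The exact permutation p was 0.33 for each, the smallest possible.

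Of the 18 members open in all 4 libraries, 16 had a higher mean percentile in R248W than in WT, with a median difference of 4.38 percentile points, against 0.25 over coding genes, of which 6502 of 11383 were higher. Both values moved with WT 1: without it, 9 of the 18 members were higher, with a median difference of 0.25, and 3641 of the coding genes, with a median of -0.71. Without WT 2 the median difference was 9.35, against 1.26 over coding genes, and without R248W 1 it was 2.73, against -0.15. The members lay lower in the lists, at a median percentile of 60.0 against 85.3 over coding genes. No comparison with coding genes at a like percentile was made, so these differences in percentile points cannot be set directly against each other. Both R248W libraries lay above both WT libraries for Dlx6, Nkx2-3 and Tbx21, or 3 of 18, against 13.8% of coding genes, and both lay below for none, against 10.8%. For Tbx21 the percentiles were 1.12, 0.361, 10.5 and 13.0, for Dlx6 46.0, 61.2, 67.0 and 70.6, and for Nkx2-3 61.3, 60.2, 70.1 and 68.6. By signal Nkx2-3 did not separate, with 79 in WT 2 and 78 in R248W 2. The Tbx21 signals of 20, 19, 28 and 27 lay near 16, the lowest value in the lists. In the remaining members the genotypes overlapped, and Dlx1 and Pax3 had lower means in R248W, by -7.99 and -2.13.

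**Figure D5:**
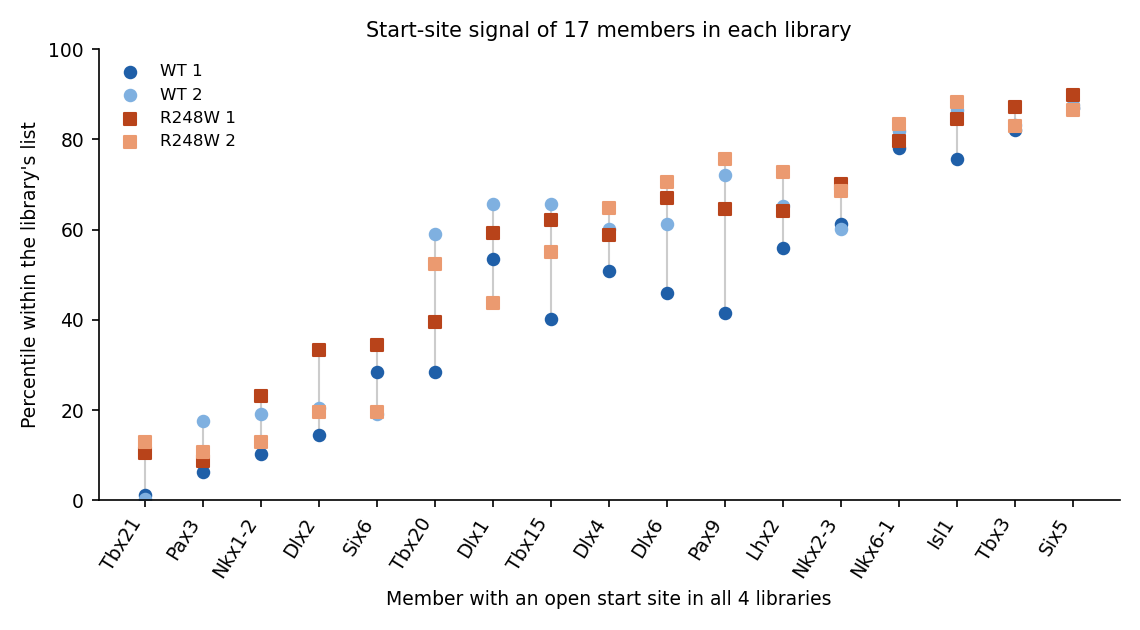
Percentile of the start-site signal within each library's list (y axis) for 17 of the 18 members open in all 4 libraries (x axis, ordered by mean). Circles are WT and squares R248W libraries; the genotypes separate only for Tbx21, Dlx6 and Nkx2-3, and WT 1 is the lowest library for many members.

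When the intervals of all libraries were merged wherever they shared 1 base, the members had 151 of 69759 regions. All 4 libraries held 73 of them (48.3%), against 58% of all regions, and 1 library only held 30 (19.9%), against 15.9%. WT 2 alone accounted for 17 of the 30, and WT 1 was the only library missing from 21 of the 28 regions called in 3. Called in both R248W libraries and neither WT library were 3 of the 151 regions, against 1.23% of all regions. They were assigned to 4 of the 56 members with an interval, against 3.68% of genes with an interval. No test was made on counts this small. The opposite pattern was seen for 2 regions, against 0.827% of all regions, assigned to 2 members, against 2.33% of genes.

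Among the regions called only in R248W, the one inside Lhx9, a gonad and limb regulator, at chr1:138840635-138842917, had signals of 50 and 33, overlapped a CpG island and lay 258 bases from a WT interval. It held the RefSeq start of Lhx9, which is not the start in the file, with summits 620 and 876 bases from it in R248W 1 and R248W 2. Upstream of Six3, chr17:85617651-85618746 had 32 and 41, with an island. Among those called only in WT, the one inside Pax3, chr1:78189218-78190158, had signals of 27 and 30, and the one assigned to Tbx2, a regulator of heart and limb, chr11:85841208-85842701, had 60 and 86. The Tbx2 region lay 138 bases from an R248W interval, and both WT-only regions overlapped an island. When every list was shortened to the length of the WT 1 list, the regions of Lhx9 and Tbx2 kept their pattern and the other 3 did not.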

How the data were processed

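ATAC-seq of LSK cells gave 4 libraries, grouped by the genotype in their titles. The submitters' processing notes name MACS 1.4.2 and the build mm10. What aligner, read filters, transposase offset, depth and signal scaling were used is not stated in the labels or file. A difference in depth changes how many weak intervals a list holds. Per the file headers, the deposited table gives for each interval its highest-bin and mean-bin signal, CpG islands and genes with distances to their starts. Highest-bin values ran from 16 to 1298 in whole numbers. Length equaled end minus start in every interval, so starts may be counted from 0.

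Intervals were joined to members by symbol, and merged across libraries where they shared 1 base, with pandas 2.3.3 and numpy 2.4.6. Coding genes, promoters and older symbols came from RefSeq tables of GRCm38.p6. Of the file's symbols, 1347 were matched by an older name, and 42 members had 53 promoters. Intervals are per library, with no value for every region, so no fit across regions was made. Library values were compared by exact permutation (scipy 1.17.1), and the counting was tested on simulated data. Named genes were the 2 highest open members per family, members open in 1 to 3 libraries, those with a genotype-specific region and the 5 with the strongest distal interval. Other genes were named to complete counts, and some items that the rule selects are not reported here. Members and lists were chosen with earlier results of these data known. Alternatives varied the start window, list length, gene assignment, signal, overlap and libraries. Same-numbered libraries were not treated as paired.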

Additional observations from a re-analysis of the deposited data

How the results depend on the processing

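All settings named here were planned except the RefSeq starts and those for the count of members with a higher mean percentile in R248W, which were chosen after seeing the data. Differences are R248W minus WT. With the best 50% of each list, the Tbx2 region alone, of the 5 with a genotype pattern, kept it, the difference in island share was -2.46 percentage points, that in share was 0.0149 with no overlap (exact permutation p = 0.33), that in median percentile was 0.966, 8 members were open in all 4 libraries, and all 8 had a higher mean percentile in R248W. With the same number of intervals in each library, the difference in median percentile was -1.29, and there were 7 R248W-only regions and 1 WT-only region, of which 1 each was among those of the full lists. The differences in member intervals, share, open starts and island share were then 9.5, 0.0203, 5 and 2.51, with no overlap between genotypes (exact permutation p = 0.33 each, the smallest possible). Leaving out each library in turn gave differences of -19 to 26 member intervals, -0.00818 to 0.0158 percent of all intervals, -1 to 5 open starts, -3.46 to 9.69 in median percentile and -0.348 to 2.18 in island share. It gave 3 to 24 R248W-only regions, with 24 without WT 2 and 11 without R248W 2, 4 to 19 WT-only regions, with 19 without WT 1, and 11 to 16 members higher in R248W, with 11 of the 21 open in the libraries left without WT 1. The number of members open in all 4 libraries was 13 with a window of 500 bases and 23 with 2 kb. With 2 kb the difference in median percentile was 12.4, with no overlap (41.5, 37.4, 50.0 and 53.7; exact permutation p = 0.33). The island share differed by 3.89 with 500 bases and 2.12 with 2 kb, and the median percentile of the mean-bin signal by 1.42. The causes of these changes were not tested.

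Same-numbered libraries did not deviate together in signal (correlation -0.0199 over the 40492 regions called in all 4 libraries). Calls were shared across genotypes: 5197 regions were called in WT 2 and R248W 1 only, and 117 in WT 1 and R248W 2 only. Among member regions these numbers were 8 and 0. The cause was not tested. The replicate block gave differences of 3.5 intervals, 0.0038 percent, 2 open starts, 3.12 in percentile and 0.915 in island share, with p = 1 by exact sign flips. Unknown depth limits every count, and with 2 libraries a genotype the exact permutation tests could not go below 0.33, nor the sign flips below 0.5.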
